A study of Mus musculus with 24 samples.

Results

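Intergenic H3K4me3 regions were defined as stretches of the mouse genome with a called H3K4me3 peak and no annotated gene nearby. Overlapping peaks (by 1 b or more) of 12 H3K4me3 lists were merged, for the X chromosome and 19 autosomes, which gave 22663 merged regions. Of these, 17623 had a peak in at least 3 lists, and 1191 of the 17623 (6.76%) lay more than 5 kb outside every gene, coding or not, of the RefSeq annotation of mm10. A further 782 regions (4.44%) lay within 5 kb of a gene and 15650 (88.8%) overlapped one. Because the presence of H3K4me3 peaks chose these 1191 regions, their levels and recurrence below are a description of what was chosen and carry no test.

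Group 3 innate lymphoid cells (ILC3s) are tissue lymphocytes without antigen receptors that secrete IL-22 and IL-17 in the gut. They were sorted from the small intestinal lamina propria into CCR6+, NKp46+ and double-negative (DN) subsets and profiled by CUT&Tag, in which an antibody tethers a transposase that cuts and tags the DNA beside its target, with 100000 cells per library. Antibodies against H3K4me3 and against CFP1, the product of Cxxc1, were each used on 12 libraries, 2 numbered replicates of each subset and genotype. Both genotypes carry floxed Cxxc1 alleles: Cxxc1flox/flox mice are called WT here, and mice that add a Cre recombinase are called KO. Every sample is labelled as 6 to 8 weeks old, while the protocol text also speaks of aged and young mice and names a culture medium, and neither says whether replicates or subsets came from separate animals. The p-values therefore measure only the spread between these libraries, which may be technical.

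H3K4me3 is the trimethylated lysine found on nucleosomes at active and poised transcription start sites, and at lower levels at some active enhancers. CFP1 binds unmethylated CpG dinucleotides and brings the SET1 methyltransferase complexes, which write the mark, to CpG-rich promoters. A region of H3K4me3 far from annotated genes can be an enhancer, an unannotated start or a repeat-derived promoter, and the mark alone does not separate these. No sequence of the regions is shown, because the sequence tables used here cover gene starts and miRNAs and overlapped 0 of the 1191.

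The H3K4me3 lists held 11794 to 18127 peaks, and 2 KO lists were the shortest, CCR6+ replicate 1 with 11794 and DN replicate 1 with 12446. The CFP1 lists held 4574 to 7983 peaks in WT, 714 to 1312 in 4 of the KO libraries, and 4891 and 8881 in KO NKp46+ replicate 2 and KO DN replicate 2, which overlap or exceed the WT range. CFP1 is the product of the deleted gene, so these 2 CFP1 lists go against their label, and the libraries are KO here only as labelled. Whether the H3K4me3 libraries of the same label and number come from the same cells is not stated, and the counts by genotype are given with and without both. Read depth is unknown, since the lists give no counts, so a region without a peak was below the calling threshold and not necessarily without the mark. Within 1 kb of a gene end, H3K4me3 peaks were called at Id2, Ahr and Kit in all 12 libraries. At Il23r they were called in 6 WT libraries and 1 KO library. Il22, Il17a, Il1r1 and Gata3 had no peak within 1 kb of an end in any library. Over the whole gene, Gata3 had a peak in 6 WT and 6 KO libraries and Il1r1 in 6 WT and 3 KO, while Il22 and Il17a had none. Of the T cell genes, Cd3d and Cd3e had a peak within 1 kb of an end in 6 WT and 5 KO libraries each. Cd3g had one in 5 WT and 4 KO libraries, Cd8a in 4 WT and 2 KO, and Cd5 and Trac in 2 WT and 2 KO. Of the epithelial genes, Epcam had one in all 12 libraries, Cdh1 in 5 WT and 5 KO, Krt8 in 2 KO, and Vil1 and Cdx2 in none. The B cell genes Ms4a1 and Pax5 had none and Cd79a had one in 1 KO library. Of 5 myeloid genes, Cd14 had one in 5 WT and 5 KO libraries and Itgax in 3 WT and 2 KO. Adgre1 had one in 1 WT and 1 KO library, Lyz2 in 1 KO library, and 1 gene had none. Of 5 stromal and endothelial genes, Col1a1 had one in 3 WT and 6 KO libraries, Pecam1 in 4 WT and 1 KO, and 3 had none. Of 4 ILC2 genes, 1 had one in all 12 libraries and 2 had none. Of 4 NK and ILC1 genes, 0 had one in all 12 and 1 had none. The part of other cell types in the results below was not tested, and in sorted bulk cells fewer cells with a mark and less mark per cell cannot be told apart.

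The 1191 regions were narrower, weaker and less recurrent than regions overlapping a gene, and close in each measure to the 782 regions within 5 kb of one. Their merged width ran from 362 to 3677 b with a median of 1004 b, against a median of 1365 b for regions overlapping a gene and 944 b for those within 5 kb. The median fold enrichment was 5.77 in the intergenic regions, 5.43 within 5 kb and 8.65 in regions overlapping a gene. Within each library the median fold enrichment of the peaks in them, the peak caller's ratio of signal to local background, was 5.66 to 7.62, against 8.78 to 9.81 for the other recurrent regions. Their median rank by fold enrichment fell between the 20.3 and 37.8 percentile of the library's own list.

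Recurrence split the regions most plainly. A peak in exactly 3 lists was the most frequent pattern, with 216 regions (18.1%), and 174 (14.6%) had a peak in all 12. Of the regions within 5 kb of a gene 17.6% were in 3 lists and 15.6% in 12, and of all other recurrent regions, mostly overlapping a gene, 6.68% and 60%. The median fold enrichment was 4.8 in regions of 3 lists and 9.43 in regions of 12. Just outside the rule lay 276 gene-distant regions with a peak in 2 lists (median fold enrichment 4.46) and 614 with a peak in 1 list (4.08), so regions of 3 lists resembled the excluded regions of 2 lists in strength.

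**Figure D1:**
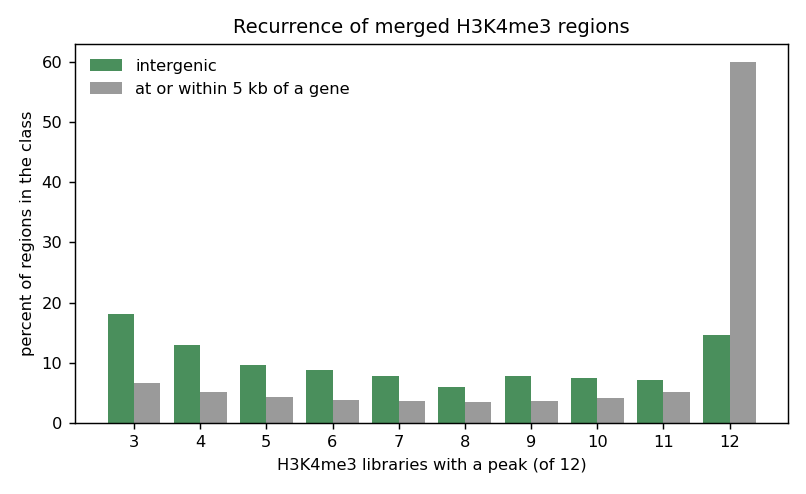
Percent of merged H3K4me3 regions (y axis) by the number of H3K4me3 libraries with a peak (x axis, 3 to 12 of 12), for the 1191 intergenic regions (green) and the other recurrent regions (grey). Intergenic regions are spread over all counts with 14.6% in all 12 libraries, where 60% of the other regions sit.

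The distance of the regions to the nearest gene of any kind had a median of 12117 b and reached 292266 b. To the nearest protein-coding gene the median was 20708 b. Between 5 and 10 kb there were 456 regions, of which 18% had a peak in all 12 libraries, and that share was 15.2% of 414 regions at 10 to 20 kb, 9.76% of 246 at 20 to 50 kb and 6.67% of 75 beyond 50 kb. The nearest gene was protein-coding for 561 regions (47.1%), a lncRNA for 402 (33.8%), a pseudogene for 159 (13.4%) and a miRNA for 17. Just inside the limit stood regions 5.02 kb from Ptpn1 and 5.03 kb from Gatad2a, with peaks in all 12 and in 9 libraries. Just outside it stood regions 4.99 kb from Cdc42ep2 and 4.99 kb from Ccdc142, with peaks in 1 WT and 2 KO and in 5 WT and 6 KO libraries. The annotation table used gives no strand, so distances are to the nearer end of a gene, whichever end that is.

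Among regions with a peak in every library, the widest by median covered length, the bases of a region under a library's peaks, was chr17:83275878-83279218. It lay 5.77 kb from the snoRNA gene Gm24240, and its nearest coding gene, 50.8 kb away, was Pkdcc, which encodes a secreted tyrosine kinase. Its peaks covered 1268 to 3160 b in WT and 364 to 2517 b in KO libraries, and its fold enrichment was 4.03 to 6.02. The next, chr12:85485622-85487918, lay 8.35 kb from Fos, the AP-1 subunit induced as an immediate early gene, covered 562 to 2259 b (median 2021 b) and had a fold enrichment of 8.24 to 10.8. Both regions had groups that overlapped in covered length. Others of this kind were nearest to the coding genes Lmntd1, Commd3, Chd2, Aqp11, Ube4b and Nnmt, with median covered lengths of 1990, 1913, 1878, 1772, 1701 and 1633 b.

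At the other extreme, the region farthest from any gene was chr15:50361263-50362491, 292 kb from Trps1, a GATA-type repressor gene. It had a peak in 5 WT and 4 KO libraries, in all 6 replicate 2 libraries and in 3 of replicate 1. Regions 197 kb from the lncRNA gene Gm40658 (chr13:4942626-4943391), 197 kb from the pseudogene Gm52849 (chr5:59573275-59574139) and 181 kb from Dmrta1 (chr4:89875880-89876566) had peaks in 11, 5 and 9 libraries. The Gm52849 region was called in 5 replicate 2 libraries and no replicate 1 library.

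Across libraries the number of regions with a peak ran from 287 to 1017 and did not separate the genotypes. Replicates 1 and 2 of WT CCR6+ cells had 721 and 684 of the regions, and those of KO CCR6+ cells 287 and 976. For NKp46+ cells the values were 452 and 823 in WT and 883 and 1017 in KO. For DN cells they were 557 and 735 in WT and 393 and 873 in KO. The KO values ran both below and above all WT values, with means of 662 ± 134 in WT and 738 ± 315 in KO (SD, n = 6 each). The KO library exceeded the WT library of the same subset and number in NKp46+ (by 431 and 194) and in replicate 2 of CCR6+ and DN (by 292 and 138). It differed by -434 and -164 in replicate 1 of CCR6+ and DN. Replicate numbers were not taken as pairs, so these differences only describe the libraries. By replicate number the means were 549 ± 221 for replicate 1 and 851 ± 131 for replicate 2 (SD, n = 6 each).

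These numbers moved with the length of the lists. When each list was cut to its 11794 peaks with the smallest p-values, the length of the shortest list, 473 regions met the same rule and each library held 255 to 326 of them. The means were then 300 ± 11.2 in WT and 298 ± 26.1 in KO, and 290 ± 20.7 in replicate 1 and 308 ± 14.1 in replicate 2 (SD, n = 6 each). With lists of equal length the difference between the genotype means was -2.33 regions, KO minus WT, against 76.2 with every deposited peak. Subsets overlapped as well, at 285 ± 20.6 in CCR6+, 314 ± 14.6 in NKp46+ and 297 ± 11.9 in DN libraries (SD, n = 4 each).

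**Figure D2:**
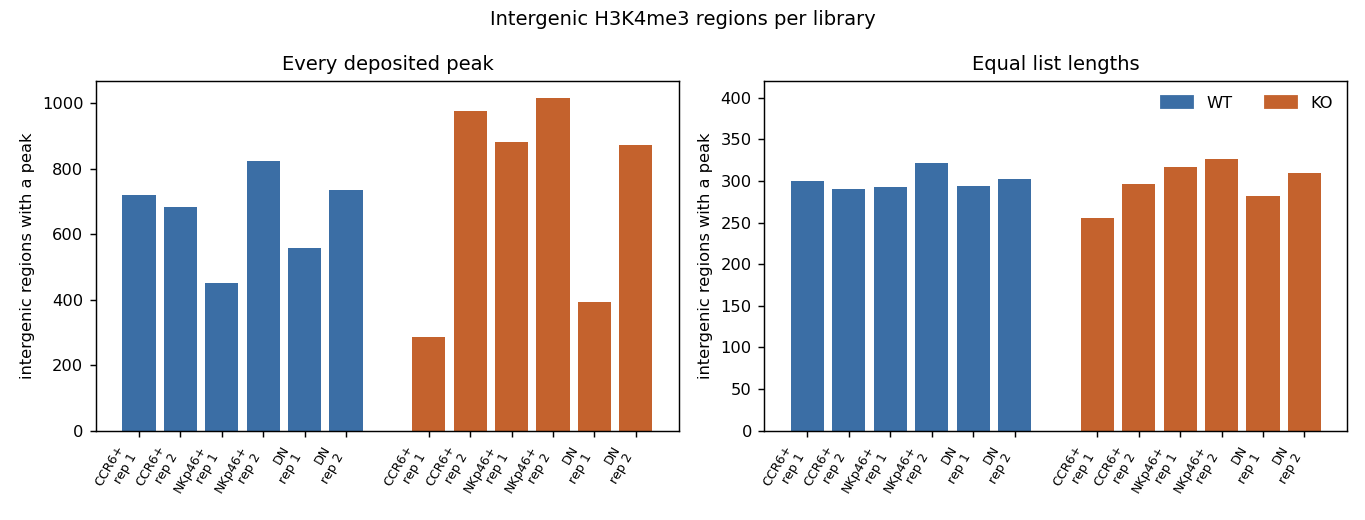
Intergenic H3K4me3 regions with a peak (y axis) in each of the 12 H3K4me3 libraries (x axis), with every deposited peak on the left and with each list cut to 11794 peaks on the right, where the y axis is shorter. Blue bars are WT and orange bars KO; the range narrows from 287 to 1017 on the left to 255 to 326 on the right.

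Between genotypes, regions with peaks in more KO than WT libraries numbered 497, regions with more WT libraries 351, and 343 had equal numbers, which is 41.7%, 29.5% and 28.8% of the 1191, against 19.6%, 14.3% and 66.2% of the other recurrent regions. In no WT library at all were 126 regions (10.6%, others 4.47%), and 30 were in no KO library (2.52%, others 1.03%). A region in all 12 libraries can only be equal, and 14.6% of the intergenic and 60% of the other regions were. In both classes more regions leaned to KO than to WT. The larger shares here therefore do not show a genotype difference particular to intergenic regions. Each merged region with a peak in 2 to 10 of the 12 lists was compared by a two-sided Fisher exact test of 6 WT against 6 KO libraries, where the smallest possible p is 0.00216. This gave 8313 regions tested, among them 933 of the 1191. At an unadjusted p under 0.05, 8 of the 933 (0.857%) had more WT libraries, where 0.722% of all tested regions did, and 4 (0.429%) had more KO libraries, where 0.577% of all did. Both shares lay near the background, so they are no result about intergenic regions. That background includes regions with a peak in only 2 lists, which cannot reach this threshold and which are not among the 933. No region passed after Benjamini-Hochberg adjustment of the Fisher exact p-values (smallest adjusted p 0.998), and an exact permutation within subsets gave the same counts of 8 and 4 unadjusted and 0 adjusted. With so few possible p-values, a region could pass adjustment only where a great many tested regions reached the smallest p together, so the adjusted counts of 0 do not show that regions were alike between groups.

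The KO count changed most without the 2 short lists. Without KO CCR6+ replicate 1 or without KO DN replicate 1, 39 regions had more KO libraries at an unadjusted p under 0.05, without both 163, and without WT DN replicate 2 there were 8. The WT count was 9 without both short lists, 15 without WT NKp46+ replicate 1, 17 without WT DN replicate 1 and 14 without KO DN replicate 2. Without both KO libraries whose CFP1 lists went against their label, 23 regions had more WT and 6 more KO libraries, and the KO minus WT difference in mean regions per library was -27.2, against 76.2 with all 12. With equal list lengths the split of 8 against 4 became 6 with more WT and 8 with more KO libraries. None of these settings gave a region at an adjusted p under 0.05. The share over all tested regions was not counted in these settings. Leaving out a library also changes which splits between genotypes can reach p under 0.05. These counts are therefore no result about intergenic regions.

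**Figure D3:**
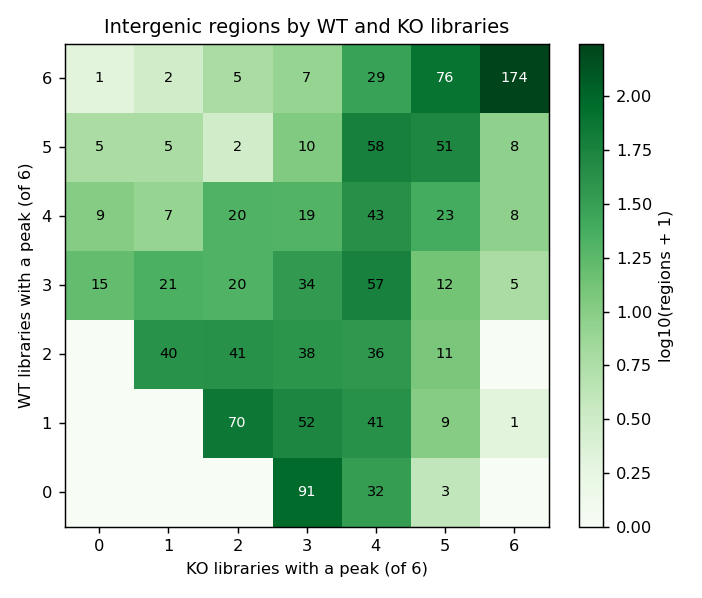
Number of intergenic regions (printed in each cell, shaded on a log10 scale) by how many of 6 KO libraries (x axis) and 6 WT libraries (y axis) had an H3K4me3 peak. The largest cells are 174 regions in all 12 libraries and 91 in 3 KO libraries and no WT library, and 1 region was in all WT and no KO libraries.

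The region with the fullest separation was chr12:54442567-54444397, 12.1 kb from the pseudogene Gm7557 and 201 kb from Sptssa, a subunit gene of serine palmitoyltransferase. It had a peak in all 6 WT libraries, with a fold enrichment of 4.42 to 7.8 (median 6.33), and in no KO library (Fisher exact p = 0.00216, adjusted p = 0.998). Peaks in 5 WT and no KO libraries were found at chr12:107782296-107784105, 126 kb from Bcl11b, a transcription factor of T cells and ILC2s. The same pattern held at chr13:32444781-32447210, 106 kb from Gmds, which makes GDP-fucose precursors, and at chr19:11355638-11357608, 17.9 kb from Ms4a4a. It also held at chr1:106515361-106516397, 21.8 kb from the anti-apoptotic gene Bcl2, where fold enrichment was 3.73 to 5.24. A pair of neighbouring regions on chromosome 8 stood 47 and 55.9 kb from Wwox, an oxidoreductase gene. The nearer one had a peak in 6 WT libraries and 1 KO library, and the farther one, chr8:115408601-115412195, in 5 WT and no KO libraries. A last one, 114 kb from Akirin2, a nuclear factor gene, was in 6 WT libraries and 1 KO library.

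In the KO direction, chr9:110781034-110781895, 11.2 kb from Myl3, a myosin light chain gene of heart and slow muscle, had a peak in all 6 KO libraries and in WT CCR6+ replicate 1. Its fold enrichment was 8.16 in that WT library and 3.94 to 10.3 in the KO libraries. Peaks in 5 KO and no WT libraries were found at chr11:117949381-117950036, 16 kb from Socs3, the feedback inhibitor of STAT3 signalling. They were also found at chrX:106135257-106136686, 6.59 kb from Tlr13, a receptor for bacterial ribosomal RNA, and at 1 region on chromosome 18. Regions 85.8 kb from Nt5e, which encodes CD73, 23.4 kb from Txlnb and 10.9 kb from Wipf1, which encodes a partner of WASP, had peaks in 4 KO and no WT libraries (Fisher exact p = 0.0606, adjusted p = 0.998 each). The median fold enrichment of those 3 regions was 11.2, 9.9 and 7.95. With equal list lengths none of the 12 regions in the plot of peaks by library passed an unadjusted p of 0.05: the difference was 4 WT libraries near Sptssa and near Gmds and 2 KO libraries near Myl3, and it was 0 near Tlr13.

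**Figure D4:**
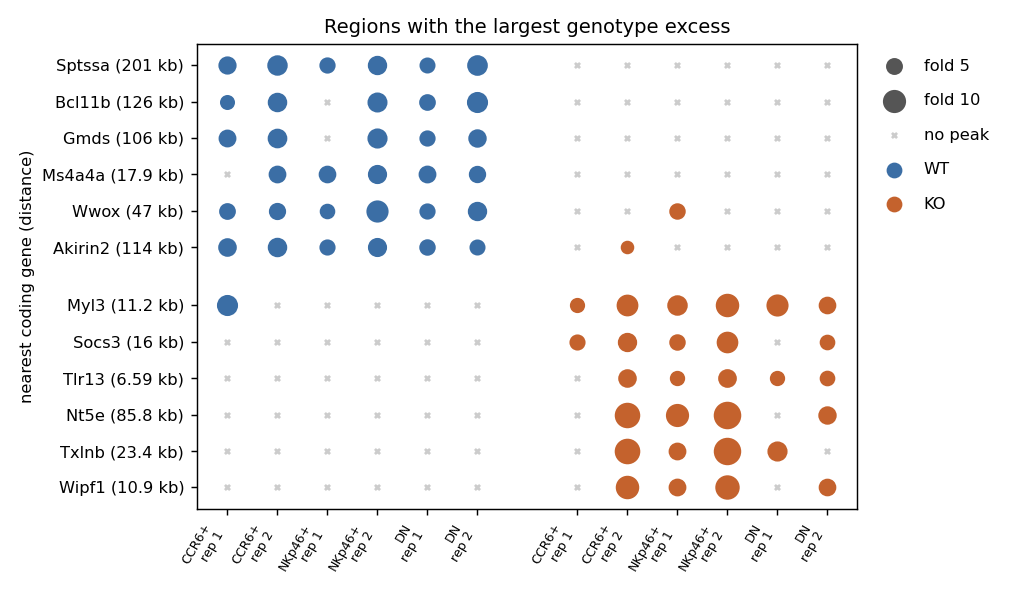
H3K4me3 peaks of the 6 intergenic regions with the largest excess of WT libraries and the 6 with the largest excess of KO libraries (rows, by nearest coding gene and distance) in the 12 libraries (columns, WT in blue, KO in orange). Dot area is proportional to the fold enrichment of the peak and a grey cross is a library without a peak; the Sptssa row has dots in all 6 WT libraries only, and regions on chromosome 18 are not drawn.

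Within a subset, NKp46+ cells had the most regions that followed genotype in both replicates. There 179 regions (15%) had a peak in both KO libraries and neither WT library, against 17 (1.43%) with the opposite pattern, where the other recurrent regions had 7.41% and 0.463%. In CCR6+ cells the numbers were 10 (0.84%) and 35 (2.94%), with 0.469% and 1.42% of the others. In DN cells they were 14 (1.18%) and 22 (1.85%), with 0.578% and 1% of the others. Regions in all 12 libraries, 14.6% of the intergenic and 60% of the others, cannot show these patterns. The shares of the 2 classes are therefore not alike in what they could reach. The NKp46+ KO lists held 16635 and 18127 peaks and the WT lists 12838 and 15397, so list length moves with this pattern, and with 2 libraries in each group no test of it can reach p under 0.05.

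For each subset, the 4 libraries were compared with the 8 of the other subsets by the same Fisher exact test, whose smallest p is 0.00202. A larger share of CCR6+ libraries was found at an unadjusted p under 0.05 for 7 of the 933 regions (0.75%), with 0.686% of all tested regions as background. For NKp46+ it was 16 (1.71%, background 1.02%) and for DN 13 (1.39%, background 0.854%). A smaller share was found for 3 regions in CCR6+ (background 0.18%), 2 in NKp46+ (background 0.168%) and 2 in DN (background 0.108%). The background includes regions with a peak in only 2 lists, which cannot reach this threshold and which the rule leaves out of the 933. None passed after Benjamini-Hochberg adjustment of the Fisher exact p-values (smallest adjusted p 1, 1 and 0.967).

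The subset counts changed with single libraries. The CCR6+ count was 0 without WT CCR6+ replicate 1 or KO CCR6+ replicate 2, 1 without WT CCR6+ replicate 2, 17 without KO CCR6+ replicate 1 and 13 without KO NKp46+ replicate 2. The NKp46+ count was 29 without WT NKp46+ replicate 1, 27 without KO CCR6+ replicate 2, 10 without WT NKp46+ replicate 2 and 5 without either KO NKp46+ library. The DN count was 7 without WT DN replicate 1, 5 without WT DN replicate 2 and 6 without KO DN replicate 2. With equal list lengths the 3 counts were 0, 6 and 9. The share over all tested regions was not counted in these settings, and leaving out a library changes which splits can reach p under 0.05. Whether the background moved as much is therefore not known.

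The most complete subset patterns were at chr13:46159103-46160125 and chr1:125467712-125468409. The first, 114 kb from Stmnd1, had a peak in all 8 NKp46+ and DN libraries, with a fold enrichment of 5.6 to 6.82, and in none of the 4 CCR6+ libraries (Fisher exact p = 0.00202, adjusted p = 1). The second, 32 kb from Actr3, an Arp2/3 actin-nucleating subunit gene, had a peak in the 4 DN libraries and no other. Its fold enrichment was 5.86 and 3.97 in WT DN replicates 1 and 2 and 4.27 and 5.3 in KO DN replicates 1 and 2 (Fisher exact p = 0.00202, adjusted p = 0.967). A region 93.6 kb from Mdfic and another 6.44 kb from Myl10 had peaks in all 4 NKp46+ libraries and 1 CCR6+ library. A region 72.5 kb from Pced1b was in no NKp46+ library but in 3 CCR6+ and 4 DN libraries, and one 43 kb from Pdp1, a phosphatase gene of the pyruvate dehydrogenase complex, was in no DN library but in 3 CCR6+ and 4 NKp46+ libraries. No region was in all 4 CCR6+ libraries, or in all 4 NKp46+ libraries, and nowhere else.

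Presence of these regions also went with replicate number. Peaks were found in more replicate 2 libraries for 851 regions (71.5%, others 35.1%) and in more replicate 1 libraries for 91 (7.64%, others 2.2%). In no replicate 1 library were 116 regions (9.74%, others 4.33%), against 10 in no replicate 2 library (0.84%, others 0.225%). Regions in all 12 libraries, 14.6% of the intergenic and 60% of the others, cannot differ by replicate number. The larger shares are therefore not a trait particular to intergenic regions. By the Fisher exact test 52 of the 933 (5.57%, background 4.09%) had more replicate 2 libraries at an unadjusted p under 0.05 and 0 had more replicate 1 libraries (background 0.0601%). The background again includes regions with a peak in only 2 lists, which cannot reach this threshold, so 5.57% and 4.09% are not a like comparison. None passed after adjustment (smallest adjusted p 0.305). The count of 52 became 4 with equal list lengths, 80 without WT CCR6+ replicate 1, 91 without KO NKp46+ replicate 1 and 85 without both KO libraries whose CFP1 lists went against their label. Equal list lengths also leave a smaller set of intergenic regions. The share over all tested regions was not counted in these settings, and leaving out a library changes which splits can reach p under 0.05. These counts are therefore no result about intergenic regions. Regions in all 6 replicate 2 and no replicate 1 libraries included those 31.8 kb from Lhfpl2 (chr13:94024731-94025365, fold enrichment 5.27 to 11) and 52.4 kb from Ypel2 (chr11:86882930-86884039, 6.92 to 9.47). The median covered length per library was likewise 552 ± 111 b in replicate 1 and 792 ± 25.7 b in replicate 2 (SD, n = 6 each). Peaks of the other regions were also wider in replicate 2, at 1202 ± 32.5 b against 922 ± 84.7 b.

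CFP1 peaks touched 511 of the 1191 regions (42.9%) in at least 1 of the 12 CFP1 libraries and 411 (34.5%) in at least 1 WT library, where 56.6% and 51.9% of the other recurrent regions had them. In all 6 WT libraries they touched 24 (2.02%), against 2.17% of the regions within 5 kb of a gene and 14.7% of those overlapping one. The share of the regions with a CFP1 peak was 7.14% and 25.7% for replicates 1 and 2 of WT CCR6+ cells, 6.47% and 20.2% for WT NKp46+ cells, and 4.11% and 26.5% for WT DN cells. The KO shares, replicate 1 then replicate 2, were 0.756% and 4.95% for CCR6+ cells, 0.84% and 19.6% for NKp46+ cells, and 0.924% and 33.8% for DN cells. The groups overlapped, with 15 ± 10.3% in WT and 10.1 ± 13.7% in KO (SD, n = 6 each). Without the long CFP1 lists of KO NKp46+ replicate 2 and KO DN replicate 2, the KO mean differed from the WT mean by -13.2 percentage points, against -4.9 with all libraries.

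Replicate number and CFP1 moved together here as well. The mean share was 3.37 ± 2.95% in replicate 1 and 21.8 ± 9.72% in replicate 2 for the intergenic regions, and 17.3 ± 12.2% and 28.3 ± 12.7% for the other recurrent regions (SD, n = 6 each). In all 6 subset and genotype groups, replicate 2 exceeded replicate 1 for the intergenic regions. The other regions did so in 4 of the groups, with 27.7% in replicate 1 and 27.4% in replicate 2 of WT NKp46+ cells and 7.83% and 5.98% in KO CCR6+ cells.

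**Figure D5:**
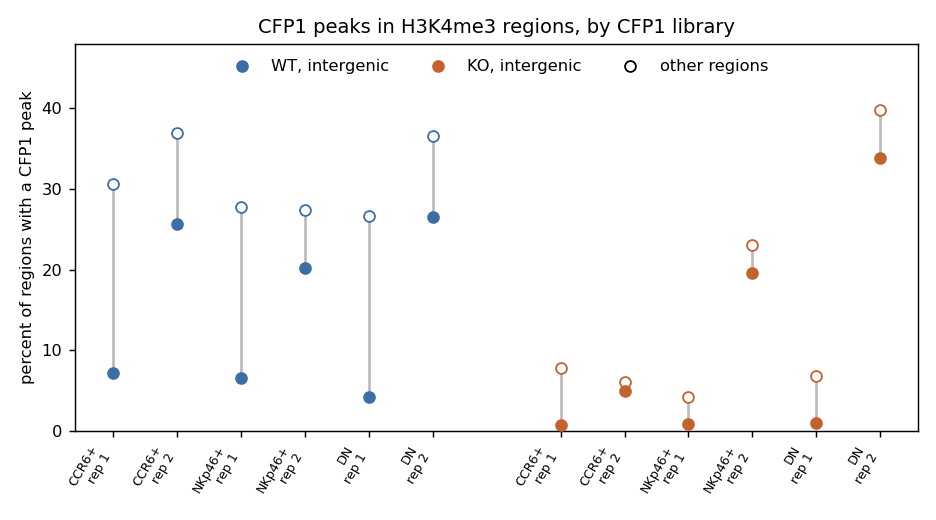
Percent of H3K4me3 regions with a CFP1 peak (y axis) in each CFP1 library (x axis; WT blue, KO orange), for the 1191 intergenic regions (filled circles) and the other recurrent regions (open circles). The 2 highest KO values, 19.6% and 33.8% of intergenic regions, belong to NKp46+ replicate 2 and DN replicate 2.

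By region, 376 of the 1191 had a CFP1 peak in 2 to 10 CFP1 libraries and were tested among 7864 merged regions. At an unadjusted Fisher exact p under 0.05, 2 of the 376 (0.532%) had fewer KO libraries, where 5.43% of all tested regions did, and 0 had more. None passed after Benjamini-Hochberg adjustment (smallest adjusted p 0.279). A region with CFP1 in few WT libraries cannot reach this p. CFP1 was in all 6 WT libraries in 2.02% of the intergenic and 14.1% of the other recurrent regions. The shares of 0.532% and 5.43% therefore do not compare how much CFP1 was lost. The count of regions with fewer KO libraries was 5 without WT DN replicate 1, 7 without KO NKp46+ replicate 2, 8 without KO DN replicate 2 and 26 without both of these KO libraries. The share over all tested regions was not counted in these settings, and leaving out libraries changes which splits can reach p under 0.05. One of the 2 regions called with all libraries was chr2:32137329-32138262, 12.8 kb from Prrc2b, with CFP1 in 6 WT libraries and 1 KO library (Fisher exact p = 0.0152, adjusted p = 0.279). Its H3K4me3 peak was in all 12 libraries with a fold enrichment of 11 to 14.

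Of the regions with CFP1 in all WT libraries, the one with the strongest H3K4me3 was chr7:110164126-110165079, 20.8 kb from Wee1, the kinase that holds back mitotic entry, with a median H3K4me3 fold enrichment of 16.4 and CFP1 in 6 WT and 2 KO libraries. At chr13:48545121-48546821, 6.85 kb from the let-7a-1 miRNA gene Mirlet7a-1, both H3K4me3 and CFP1 had peaks in all 12 libraries, and no other intergenic region had CFP1 in all 12. Regions 5.69 kb from the fatty acid elongase gene Elovl5 and 37.9 kb from Plcl2 had CFP1 in 6 WT and 3 KO libraries.

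How far the mark extended was compared in the 174 regions with a peak in every library. Covered length was fitted on a log2 scale with limma over the 10040 merged regions found in all 12 libraries, after each library was centred on its median. KO minus WT had a median of 0.04 over the 174 and 0.01 over all regions fitted. At an unadjusted limma p under 0.05, 5 of the 174 (2.87%) were longer in KO, with 3.85% of all fitted regions as background, and 5 (2.87%) were shorter in KO, with 5.87% as background. None passed at an adjusted p under 0.05 in limma, where 0.00996% of all fitted regions were longer and 0.179% shorter. Without centring 1 of the 174 passed the unadjusted threshold, with quantile normalization 16, and without WT CCR6+ replicate 2 there were 6.

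The region with the smallest p was chr13:55189553-55190721, 19.1 kb from Nsd1, a histone H3K36 methyltransferase gene. Its peaks covered 713 to 959 b in WT (median 864 b) and 766 to 1169 b in KO (median 1038 b), so the groups overlapped. The log2 difference was 0.32 ± 0.08 (SE), with an adjusted p of 0.201 in limma. Of the shorter ones, chr15:101246048-101247479, 6.42 kb from the activation-induced nuclear receptor gene Nr4a1, covered 1000 to 1394 b in WT and 653 to 1321 b in KO. Its log2 difference was -0.25 ± 0.10 (SE). At chr4:135066865-135068092, 52.6 kb from Runx3, a transcription factor gene of innate lymphoid development, 3 KO libraries covered 856 to 1132 b and all other libraries 359 to 515 b.

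The coding genes nearest to the regions were grouped by 12 lists of 188 genes. Of these genes 51 were nearest to 72 of the 1191 regions. Among the 72, 19 had more KO libraries, 33 more WT libraries and 20 equal numbers, and 11 were in all 12 libraries, while over all 1191 the first 3 numbers were 497, 351 and 343. Many of the 72 differed by 1 library only, in both directions. Near Atf3 only KO DN replicate 1 had no peak, and 13.1 kb from Ifngr1 only KO CCR6+ replicate 1, which are the 2 short lists. These counts carry no test, and the part of list length in them was not tested. Of the 72, 3 were among the regions at an unadjusted p under 0.05 named above, near Bcl11b, Bcl2 and Socs3.

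ILC3 transcription factors were nearest to 23 regions at 13 of their 25 genes, 1.93% of the intergenic regions, against 0.687% of all recurrent regions with these nearest genes. Other lists also had a larger share among intergenic regions, with 1.18% against 0.301% for KLF and quiescence genes, 0.672% against 0.204% for subset marker and homing genes and 0.252% against 0.0681% for myeloid genes. Of all recurrent regions 88.8% overlap a gene, and a gene with more empty space around it can be nearest to more intergenic regions. The shares therefore do not compare like regions, and the space around the genes was not tested. Runx3 had 4 regions, at 52.6, 50.2, 42.3 and 39.6 kb, in 12, 3, 4 and 11 libraries. The last of them, chr4:135079887-135081021, had CFP1 in 6 WT and 3 KO libraries. Id2, the inhibitor of E proteins that innate lymphoid cells need, had 3, at 144, 153 and 222 kb, in 11, 5 and 6 libraries. Ahr, the ligand-activated receptor that maintains ILC3s, had 2, at 18.9 and 43.8 kb, in 8 and 4 libraries. The Helios gene Ikzf2 had 2, in 4 and 3 KO libraries and no WT library. One region 90.3 kb from Lef1 was in all 12 libraries, and Bach2, Ets1 and Gata3 had 1 each, in 10, 10 and 5 libraries. Tcf7, Tox2 and Bcl11b had 2 each, and Bcl6 and Prdm1 had 1 each.

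Effector and receptor genes had fewer, with 6 regions at 5 of 21 genes. The one 8.89 kb from Cd69, an activation and tissue retention marker, was in all 12 libraries. One 9.13 kb from Il22, the signature cytokine, was in 3 libraries, NKp46+ and DN, with CFP1 in 3 WT and 2 KO libraries. Il1r1 had one at 11.1 kb in 4 WT and 2 KO libraries, none of them DN (Fisher exact p for DN = 0.0606, adjusted p = 0.967). Tnfsf11, the RANKL gene, had one in 9 libraries, and Kit had 2, at 5.42 and 124 kb, in 4 and 3 libraries.

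KLF and quiescence genes were nearest to 14 regions at 8 of 15 genes. Klf4, a zinc finger factor of growth arrest, had 3, at 37.2, 11.8 and 118 kb, in 9, 9 and 11 libraries, and the first had CFP1 in 6 WT and 3 KO libraries. The first and the second of these were in 5 WT and 4 KO libraries and the third in 6 and 5. A region 15.4 kb from Klf6 was in all 12 libraries. Of the 3 nearest to the antiproliferative gene Btg1, the one 155 kb away was in 6 WT and 2 KO libraries (Fisher exact p = 0.0606, adjusted p = 0.998).

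AP-1 and immediate early genes were nearest to 7 regions at 6 of 20 genes, of which 3 were in all 12 libraries, near Fos, Fosb and Nr4a1. Cytokine signalling genes had 8 at 7 of 19 genes: that 22.4 kb from Nfkbia, the NF-κB inhibitor gene, was in all 12, and those near Cish and Nfkb1 in 11. Ifngr1 had 2, at 13.1 and 61.6 kb, in 11 and 4 libraries. Subset marker and homing genes had 8 at 7 of 17 genes. A pair of regions 13.8 and 17.2 kb from Klrb1c, the NK1.1 gene, was in all 12 libraries, and those near Ccr7, Cd83 and Cxcr5 were each in 9. Survival genes had 2 regions at 2 of 14 genes, one of them near Bcl2. T cell genes had 1 at 1 of 12, between Cd8b1 and Cd8a and in 5 replicate 2 libraries only. Myeloid genes had 3 at 2 of 11 genes, near Cebpb and Fcgr1. B cell, epithelial and developmental genes had 0 regions, from 8, 11 and 15 genes. A nearest gene is a position and says nothing on which gene a region acts on.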

How the data were processed

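CUT&Tag with antibodies against H3K4me3 and CFP1 was deposited as 24 peak lists, 1 per library. The submitters' processing notes name fastp 0.19.7, Bowtie2 2.3.5.1, Picard, MACS2 2.2.7.1, ChIPseeker 1.28.3 and mm10; no source used here gives their settings, duplicate handling or control. The authors' fold enrichment (a ratio) and −log10 p-values and q-values per peak were used as deposited, with the smallest −log10 q of each H3K4me3 list at 1.3 to 1.42. The deposited score column was not used, and positions were read as other deposited values. The lists give no read counts, so depth is unknown and no interval could be given.

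Groups came from the labels. Genes were the 49554 placed in the RefSeq table of GRCm38.p6 (mm10), 21631 of them coding. A region held a peak if 1 b overlapped. Fisher exact tests and Benjamini-Hochberg adjustment covered all merged regions with 2 to 10 libraries, and limma 3.58.1 in R 4.3.3 covered log2 covered length; both were tested on simulated data. Python 3.11.15, pandas 2.3.3, NumPy 2.4.6, SciPy 1.17.1 and matplotlib 3.10.9 were used. The regions and the gene lists were chosen with earlier results of these data known. Regions named were the 6 with the largest excess in each genotype, 3 per subset and replicate number, the 8 widest in 12 libraries, 4 farthest from genes, 6 with most WT CFP1 libraries, up to 3 per gene list, 5 per direction in limma, and 3 on each side of the 5 kb limit; ties went to the higher rank of fold enrichment. The regions near Bcl2 and the second near Wwox, and list members beyond 3, were named after their values were seen. Chromosome 18 regions were counted and not named. A few genes and the regions beside them are not reported here. Replicate numbers were not taken as pairs, since same-numbered libraries of a subset had correlations of 0.016 to 0.244. Alternatives covered recurrence, distance, gene type, fold and q thresholds, merging, list length, scaling, the replicate block and leaving out libraries.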

Additional observations from a re-analysis of the deposited data

Results flagged for a closer look

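Among 49 groups of libraries checked for a value far from the others, 2 were found, and chance gives about 1 in 20. In the 6 replicate 2 libraries, the median fold enrichment of intergenic regions was 7.62 in KO NKp46+, where the next highest was 6.56. In the 4 NKp46+ libraries, intergenic regions made up 3.69% of the regions of WT replicate 1, where the next lowest was 5.39%. The first library had the longest H3K4me3 list (18127 peaks) and the second the shortest of its subset (12838 peaks). The part of list length was not tested.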

How the results depend on the processing

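The number of intergenic regions was 1467 with peaks in at least 2 lists, 706 with at least 6, 735 beyond 10 kb, 2467 when only coding genes counted, 788 at a fold enrichment of 5 or more, 473 with equal list lengths, and 1048 to 1187 leaving out 1 library each. Counts at an unadjusted p under 0.05, as more WT and more KO, were 4 and 1 at a fold enrichment of 5 or more, 3 and 0 at −log10 q of 5 or more, 6 and 8 with equal lists, 9 and 163 without both short KO lists, 23 and 6 without KO NKp46+ replicate 2 and KO DN replicate 2, and 8 to 17 and 4 to 39 leaving out 1 library each. The counts for CCR6+, NKp46+ and DN were 2, 8 and 6 at a fold enrichment of 5 or more, 0, 6 and 9 with equal lists, and 0 to 17, 5 to 29 and 5 to 16 leaving out 1 library each. More replicate 2 libraries were found for 4 regions with equal lists, 85 without KO NKp46+ replicate 2 and KO DN replicate 2, and for 54 to 91 leaving out 1 library each. The KO minus WT mean of regions per library was 20.4 to 166 and that of the CFP1 share -9.62 to -2.6 points leaving out 1 library each. Regions with fewer KO CFP1 libraries were 26 without both long KO CFP1 lists and 2 to 8 leaving out 1 library each. Covered length at an unadjusted limma p under 0.05 gave 1 region without centring, 16 with quantile normalization and 6 to 15 leaving out 1 library each. No setting gave an intergenic region at an adjusted p under 0.05 for genotype. The cause of these changes was not tested. Shares over all tested regions were not counted in these settings, and leaving out libraries changes which splits can reach p under 0.05.

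With the replicate block, the count of regions with more WT libraries was 1, with more KO libraries 0, with fewer KO CFP1 libraries 0, and in limma 21, while NKp46+ gave 19 and CCR6+ and DN kept 7 and 13. Same-numbered libraries over all 15 pairs of groups had correlations of 0.016 to 0.49. Not every one was over 0.1, so the numbers were not taken as pairs, although covered length and CFP1 shares differed by replicate number.

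Of 216 values of the 12 regions named for genotype under the alternatives, 0 reversed and 33 fell short of a threshold passed with all peaks: 8 of the 12 regions with the replicate block, 9 with equal lists, 8 at a fold enrichment of 5 or more and 8 at −log10 q of 5 or more. With the replicate block only the region near Sptssa could pass, so those 8 were fixed in advance. All 12 regions were picked for a large genotype difference in these same libraries. Leaving out a library could not reverse such a difference, and the exact permutation and the replicate block leave it unchanged. The lack of reversals in those settings therefore says nothing on how stable the regions are. The alternatives with equal list lengths and without pairs of libraries were chosen after the list lengths were seen. Requiring an H3K4me3 summit inside the region changes nothing, since a merged region holds whole peaks. Sequence content was not run, as it needs a genome of this build. With no counts, a missing peak cannot be told from a shallow library.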

Other observations

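Many intergenic regions shared a gap between genes. The 1191 regions lay in 1008 gaps, and 141 gaps with at least 2 of them held 324. Gaps with 4 regions included that between Ddit4, a stress-induced mTORC1 inhibitor gene, and Anapc16, an anaphase-promoting complex gene, where the 4 regions spanned 16.7 kb and had peaks in 4, 11, 5 and 5 libraries. All 4 were in more KO than WT libraries, 3 against 1, 6 against 5, 4 against 1 and 3 against 2. Between Fgfr4 and Nsd1 the 4 regions spanned 20.5 kb and had peaks in 6, 10, 12 and 6 libraries. Near the noncoding genes D130051D11Rik and Lncppara, between Wnt7b and Ppara, 4 regions were in 12, 11, 12 and 10 libraries and none had CFP1 in any library. By nearest coding gene, Fasl, the Fas ligand gene of cytotoxic lymphocytes, had the most regions, 5. These gaps were singled out after their values were seen.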
